A study of Mus musculus with 6 samples.

Results

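The 30 genes described here encode the enzymes that make cholesterol, the proteins that regulate that synthesis, and those that release, esterify and export sterol. They were chosen by symbol from a fixed list of members, all 30 were found among the 21956 genes of the deposited table, and all 30 passed the filter on low counts that left 13197 genes for testing. Of these, 19 are synthesis enzymes, 4 act in regulation and intracellular transfer, and 7 act in lysosomal release, esterification or efflux. Messenger RNA of whole liver was sequenced from 6 mice. The 3 knockout mice carried floxed Sting alleles (Stingfl/fl) with the Cdh5-Cre transgene (Cre+), in which the Cdh5 promoter directs Cre to endothelial cells. The 3 control mice were littermates with the same floxed alleles and no transgene (Cre-). The labels do not give which animals shared a litter, so litter was not modelled. Both groups ate chow to 8 weeks of age and then CDAHFD, a high-fat diet without choline and with defined amino acids, for 10 weeks to produce steatohepatitis (MASH). No control carried Cre, so effects of Cre itself and of the deletion cannot be told apart, and whether cells other than endothelial cells lost Sting was not measured.

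Hepatocytes build cholesterol from acetyl-CoA by way of mevalonate and squalene. When sterol in the endoplasmic reticulum is low, the escort protein Scap carries the transcription factor SREBP-2, the product of Srebf2, to the Golgi for cleavage, and the cleaved factor switches on nearly every enzyme of the pathway; Insig proteins hold the complex back when sterol is plentiful. Surplus sterol is esterified by Soat enzymes, exported to lipoproteins by Abca1 and secreted into bile by the Abcg5 and Abcg8 heterodimer, whose genes are targets of the liver X receptors.

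Library totals ranged from 18528915 to 20414466 counts in knockout livers and from 16704664 to 21025461 in control livers. The targeted gene, Sting1, had 106, 114 and 80 counts in knockout replicates 1 to 3, against 240, 365 and 226 in control replicates 1 to 3, a log2 fold change of -1.29 (standard error 0.23, adjusted p 0.357 in edgeR and 0.00197 in DESeq2). The labels name liver sinusoidal endothelial cells as the cell type, but the hepatocyte transcript Alb alone took 9.60% to 10.9% of the counts in knockout libraries and 6.91% to 9.61% in control libraries, so the values are those of whole liver. Control replicate 2 stood apart, with the lowest Alb share, a TMM scaling factor of 1.26 against 0.922 to 1.01 in the other libraries, and the highest summed level of the 8 cholangiocyte markers. In whole tissue, fewer cells of a type and less RNA per cell cannot be told apart.

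None of the 30 genes passed the test between knockout and control livers, and the main feature of the synthesis genes was a large, shared difference between animals of the same group. In edgeR's quasi-likelihood test 0 of the 30 had a Benjamini-Hochberg adjusted p under 0.05, where the share called among all genes was 0% (1419 genes, or 10.8%, had an unadjusted p under 0.05), and the smallest adjusted p among the members was 0.405. At an unadjusted p under 0.05 there was 1 member, Mvd, higher in knockout livers, beside 3.75% of all genes tested in that direction, and 0 members lower, beside 7%. DESeq2 called 0 members, beside 0.923% of its 13760 genes, and had 2 at an unadjusted p under 0.05, Mvd and Insig1; limma-voom called 0 and had 1. The log2 fold change was above 0 for 26 of 30 members, beside 51.2% of all genes, with a median of 0.31 beside 0.01 over all genes. For 24 of the 30 the SD between animals of one group was larger than the size of the group difference, beside 58.7% of all genes. Where the members' groups did not overlap, 1 was higher (Npc2, beside 7.25% of all genes) and 1 was lower (Ggps1, beside 9.14%); a two-sided exact permutation test gave p = 0.1 for each, and 3 animals against 3 cannot give less.

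The same 2 libraries were the lowest for nearly all synthesis genes, while the order of the other 4, and which of the 2 was lower, varied from gene to gene. Knockout replicate 1 and control replicate 2 were the lowest of the 6 libraries for 17 of 19 synthesis genes, in TMM-scaled CPM (counts relative to the scaled library size), beside 7.14% of all genes tested. The exceptions were Ggps1 and Hsd17b7. Among the 4 regulatory genes the same pair was lowest for 3, Srebf2, Insig1 and Stard4. Among the 7 release, esterification and efflux genes this held for 1, Soat2. The count for synthesis was 16 of 19 in CPM by library totals (3.14% of all genes) and 12 of 19 in the deposited TPM (2.27% of all genes). With control replicate 2 set aside, knockout replicate 1 was the lowest of the other 5 libraries for 17 of 19 synthesis genes, beside 19.8% of all genes; with knockout replicate 1 set aside, control replicate 2 was the lowest of 5 for 18 of 19, beside 28.2%. These are counts over genes that share the same 6 libraries, and the pair was picked from the values of these same genes. The counts are given as a description, and the shares over all genes are no test of the pair.

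**Figure D1:**
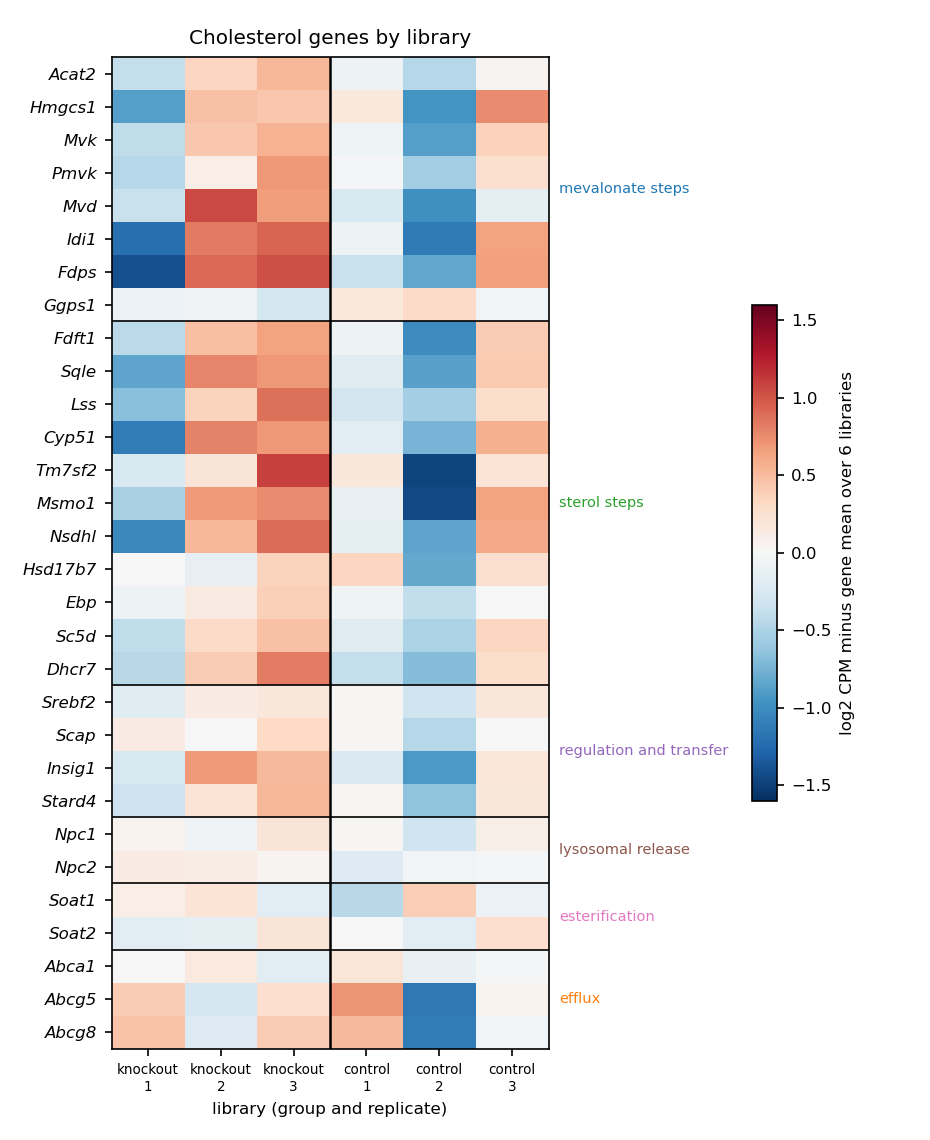
Level of each of the 30 genes (rows, grouped by role) in each library (columns, knockout left of control), as log2 CPM minus the gene's mean over the 6 libraries. Knockout replicate 1 and control replicate 2 are blue over most synthesis rows, whereas among the 7 release, esterification and efflux genes Soat2 alone had both as its lowest.

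The first reactions, which lead to mevalonate and the isoprenoid diphosphates, are catalysed by 8 of the enzymes. Their median log2 fold change was 0.36, with 6 of 8 above 0. Mvd, mevalonate diphosphate decarboxylase, which makes isopentenyl diphosphate (ENSMUSG00000006517, GRCm38 chromosome 8, 122433601 to 122443422, minus strand), had 6.65, 17.7 and 13.5 CPM in knockout livers, against 7.23, 4.33 and 7.71 CPM in control livers. Knockout replicates 2 and 3 were above every control, and knockout replicate 1 was below control replicates 1 and 3. The means were 12.6 ± 5.57 and 6.42 ± 1.83 CPM (SD, n = 3 each), the log2 fold change was 0.97 (standard error 0.36), and edgeR's unadjusted and adjusted p were 0.026 and 0.405; the two-sided exact permutation p was 0.3. Over the fits that leave out 1 library its log2 fold change ran from 0.65 to 1.28.

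Acat2, the cytosolic thiolase that joins acetyl-CoA units and is not the acyltransferase that shares its abbreviation, had 28.6, 47.3 and 53.7 CPM in knockout livers, against 35.3, 27.1 and 38.6 CPM in control livers. Mvk, mevalonate kinase, had 11.9, 21.2 and 23.1 CPM in knockout livers, against 15.0, 8.52 and 20.3 CPM in control livers. Both groups overlapped for both genes, and knockout replicates 2 and 3 were the highest libraries. Their log2 fold changes were 0.36 (standard error 0.24) and 0.36 (standard error 0.34). Ggps1, which diverts farnesyl diphosphate to geranylgeranyl diphosphate for protein prenylation and so lies outside the sterol route, had 11.5, 11.8 and 10.1 CPM in knockout livers, against 13.9, 15.3 and 11.95 CPM in control livers. Every knockout library was below every control library by a small margin, with a log2 fold change of -0.30 (standard error 0.16, adjusted p 0.531 in edgeR). Its exons overlap those of Arid4b on the other strand, and the sources used here do not give whether the strand entered the counting.

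Fdps and Idi1, isoprenoid enzymes singled out after their values were seen, had the widest ranges among the knockout livers; over all 6 libraries Tm7sf2 was wider than both and Msmo1 was wider than Idi1. Fdps, farnesyl diphosphate synthase (GRCm38 chromosome 3, 89093588 to 89101959, minus strand), had 29.7, 147 and 160 CPM in knockout livers, against 61.5, 44.2 and 124 CPM in control livers. Its highest knockout library was 5.40 times its lowest, and its highest control library 2.81 times its lowest, whereas the log2 fold change between groups was 0.55 (standard error 0.67.) Idi1, isopentenyl diphosphate isomerase, had 58.3, 239 and 258 CPM in knockout livers, against 128, 61.5 and 210 CPM in control livers, a log2 fold change of 0.48 with a standard error of 0.63. For both genes knockout replicate 1 was the lowest of the 6 libraries, knockout replicates 2 and 3 were the highest, and control replicate 3 came next. Pmvk, phosphomevalonate kinase, had 12.8 to 28.5 CPM in knockout livers, against 12 to 20.98 CPM in control livers.

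Hmgcs1, cytosolic HMG-CoA synthase, showed a large spread beside nearly equal group means, and its values in each library were added after they were seen. It had 133, 341 and 331 CPM in knockout livers, against 277, 126 and 416 CPM in control livers, with means of 268 ± 117 and 273 ± 145 CPM (SD, n = 3 each). The highest library was a control and the lowest 2 came from both groups. The log2 fold change was -0.03 (standard error 0.48, adjusted p 0.991 in edgeR), and the direction turned in limma-voom, at 0.02.

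Promoter windows from 250 bases before to 50 bases after the gene start, from RefSeq on GRCm38.p6, matched 24 of the 30 members, all but Fdps, Fdft1, Sqle, Stard4, Soat2 and Npc1, in 29 windows. They are shown because most synthesis genes shared their lowest libraries. A set of 3 motifs was searched on both strands, with no overlap among the matches printed. The sterol regulatory element TCACNCCAC, a binding site of SREBP proteins, was found in 1 member, Hmgcs1, and in 1.24% of all 32851 windows. The CCAAT box, the letters bound by NF-Y, which acts beside SREBP at many sterol promoters, was found for 21 of 24 members, 15 of 16 synthesis genes among them, and in 37.4% of all windows; several members have more than 1 window. The liver X receptor element DR4, AGGTCA repeated after a spacer of 4 bases, was found in 0 members and 0.0152% of windows. A match is a description of these letters only. Capitals mark the matches; ATTGG is CCAAT read on the other strand.
Hmgcs1, chr13:119690101-119690400, plus strand, the member with the sterol element, chosen after its values were seen: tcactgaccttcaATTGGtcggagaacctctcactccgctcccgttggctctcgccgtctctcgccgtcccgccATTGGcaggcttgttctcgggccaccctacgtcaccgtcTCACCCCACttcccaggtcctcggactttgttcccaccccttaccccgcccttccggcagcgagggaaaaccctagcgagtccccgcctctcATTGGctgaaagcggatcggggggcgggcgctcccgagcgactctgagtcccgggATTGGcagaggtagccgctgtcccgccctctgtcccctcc
Mvd, chr8:122443373-122443672, minus strand, the member with the smallest p: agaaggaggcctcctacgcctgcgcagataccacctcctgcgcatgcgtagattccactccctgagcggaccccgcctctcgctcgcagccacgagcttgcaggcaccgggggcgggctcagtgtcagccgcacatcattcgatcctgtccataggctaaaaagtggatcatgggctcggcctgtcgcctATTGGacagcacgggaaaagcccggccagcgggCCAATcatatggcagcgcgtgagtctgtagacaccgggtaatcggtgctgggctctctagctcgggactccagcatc
Ggps1, chr13:14063439-14063738, minus strand, the branch enzyme whose lowest libraries differed: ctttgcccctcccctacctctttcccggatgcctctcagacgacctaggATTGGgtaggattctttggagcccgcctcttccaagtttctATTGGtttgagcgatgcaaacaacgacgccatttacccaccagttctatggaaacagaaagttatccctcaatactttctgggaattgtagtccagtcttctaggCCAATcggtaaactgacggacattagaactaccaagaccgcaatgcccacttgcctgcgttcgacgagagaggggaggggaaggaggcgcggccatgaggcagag

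The sterol steps, from squalene synthase to the last reductase, holds 11 enzymes. All 11 had a log2 fold change above 0, with a median of 0.41 and a range of 0.07 to 0.64, and none passed. Ebp, the sterol isomerase that also binds emopamil, had 101, 119 and 140 CPM in knockout livers, against 103, 81.8 and 108 CPM in control livers. Knockout replicate 1 lay between the controls. The means were 120 ± 19.4 and 97.3 ± 13.7 CPM (SD, n = 3 each), with a log2 fold change of 0.30 (standard error 0.17, adjusted p 0.560 in edgeR). Dhcr7, the reductase that yields cholesterol from its dehydro precursor, had 36.3, 65.6 and 87.4 CPM in knockout livers, against 38.05, 30.6 and 60.3 CPM in control livers, a log2 fold change of 0.55 with a standard error of 0.35.

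Tm7sf2, a sterol reductase of the endoplasmic reticulum, had 22.9, 31.4 and 58.3 CPM in knockout livers, against 30.8, 9.86 and 31.8 CPM in control livers. Knockout replicate 3 was the highest and control replicate 2 the lowest by a wide gap, and the other 4 libraries were within 22.9 to 31.8 CPM. The log2 fold change was 0.64 (standard error 0.51); its exons overlap those of Vps51 on the same strand. Lss, lanosterol synthase, which closes the sterol rings, had 15.2, 31.0 and 44.5 CPM in knockout livers, against 19.8, 16.6 and 29.5 CPM in control livers, a log2 fold change of 0.46 with a standard error of 0.38.

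The other 7 sterol enzymes overlapped between groups as well. Sqle, squalene monooxygenase, a rate-limiting step of the later pathway, ran from 26.1 to 80.1 CPM in knockout livers, against 25.4 to 62.4 CPM in control livers. Cyp51, the lanosterol demethylase, ran from 56.0 to 210 CPM in knockout livers, against 72.7 to 180 CPM in control livers. Msmo1, the methyl sterol oxidase, ran from 81.8 to 198 CPM in knockout livers, against 43.1 to 183 CPM in control livers. In each of the 3 the lowest knockout library was replicate 1 and the lowest control library was replicate 2. Nsdhl, the sterol decarboxylating dehydrogenase of the same complex, ran from 21.9 to 83.1 CPM in knockout livers, against 25.1 to 68.1 CPM in control livers. Fdft1, squalene synthase, ran from 60.3 to 127 CPM in knockout livers, against 40.4 to 108 CPM in control livers, and Sc5d, the sterol desaturase, from 236 to 436 CPM in knockout livers, against 220.2 to 399 CPM in control livers. Hsd17b7, the keto-reductase of the complex, was the one sterol enzyme whose lowest knockout library was replicate 2, at 60.0 CPM, and had a log2 fold change of 0.07 with a standard error of 0.29. Exons of Cyp51 overlap Akap9, and those of Fdft1 overlap Ctsb, on the other strand.
Ebp, chrX:8193463-8193762, minus strand, shown as the sterol enzyme with the smallest p: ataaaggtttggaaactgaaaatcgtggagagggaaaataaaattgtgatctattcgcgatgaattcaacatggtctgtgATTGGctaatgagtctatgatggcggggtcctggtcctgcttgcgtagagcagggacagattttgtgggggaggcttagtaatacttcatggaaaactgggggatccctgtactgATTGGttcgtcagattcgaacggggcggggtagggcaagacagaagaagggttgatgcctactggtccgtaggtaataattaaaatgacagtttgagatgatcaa

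The median spread within a group was wider for the synthesis genes than for the regulatory genes and for the pooled release, esterification and efflux genes. It was not wider than that of the 3 efflux genes alone. The SD of log2 CPM between animals of the same group, pooled over both groups, had a median of 0.63 over the 19 synthesis genes, 0.33 over the 4 regulatory genes and 0.21 over the 7 release, esterification and efflux genes, beside 0.25 over all genes tested. Within the pooled 7, the median was 0.13 for the 2 release genes, 0.27 for the 2 esterification genes and 0.64 for the 3 efflux genes. The SD lay in the top 10% of all genes for 10 of the 19 synthesis genes and for 2 of the 3 efflux genes. Fdps and Idi1 had the largest values of the 30 members, at 1.11 and 1.06. Ggps1 and Ebp had the smallest among the 19 synthesis enzymes, at 0.15 and 0.22. Spread also depends on the level of a gene and the number of reads, which this comparison did not match.

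**Figure D2:**
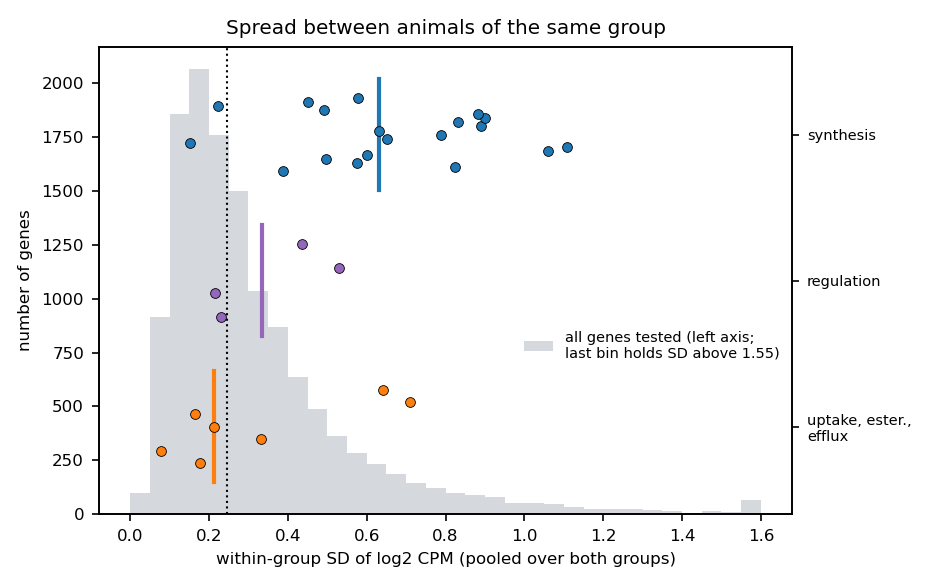
Within-group SD of log2 CPM for each member (points, right axis, where release is named uptake, with the median of each gene group as a bar) over the distribution of all genes tested (grey, left axis; dotted line, their median of 0.25). The synthesis genes centre on 0.63 and the release, esterification and efflux genes on 0.21, with Abcg5 and Abcg8 as the 2 wide points of the lower row.

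The regulators had a lower median spread than the synthesis enzymes, but all 4 varied more than Ggps1, and Insig1 and Stard4 also varied more than Acat2. Srebf2, which encodes SREBP-2, had 52.2, 65.6 and 67.9 CPM in knockout livers, against 60.5, 48.0 and 67.6 CPM in control livers. Its lowest libraries were again knockout replicate 1 and control replicate 2, within a range of 1.42-fold over the 6 libraries, and its log2 fold change was 0.08 (standard error 0.17.) Scap had 90.3, 82.3 and 102 CPM in knockout livers, against 83.1, 60.2 and 81.9 CPM in control livers, a log2 fold change of 0.29 with a standard error of 0.16. Knockout replicate 2 alone lay within the range of the controls, and knockout replicate 1 was not low.

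Insig1, the sterol-induced retention protein and itself an SREBP target (ENSMUSG00000045294, GRCm38 chromosome 5, 28071363 to 28078662, plus strand), had 89.7, 171 and 153 CPM in knockout livers, against 90.9, 56.5 and 122 CPM in control livers. Knockout replicates 2 and 3 were above every control, whereas knockout replicate 1 was below control replicates 1 and 3, the same order as Mvd. The means were 138 ± 42.6 and 89.95 ± 33.0 CPM (SD, n = 3 each), and the log2 fold change was 0.61 (standard error 0.32.) edgeR's unadjusted and adjusted p were 0.0864 and 0.522, and DESeq2's were 0.0427 and 0.420. Stard4, a soluble carrier of sterol between membranes and an SREBP target, had 59.6, 87.2 and 108 CPM in knockout livers, against 76.6, 48.0 and 85.1 CPM in control livers, a log2 fold change of 0.28 with a standard error of 0.26.
Insig1, chr5:28071162-28071461, plus strand, the regulator with the smallest p: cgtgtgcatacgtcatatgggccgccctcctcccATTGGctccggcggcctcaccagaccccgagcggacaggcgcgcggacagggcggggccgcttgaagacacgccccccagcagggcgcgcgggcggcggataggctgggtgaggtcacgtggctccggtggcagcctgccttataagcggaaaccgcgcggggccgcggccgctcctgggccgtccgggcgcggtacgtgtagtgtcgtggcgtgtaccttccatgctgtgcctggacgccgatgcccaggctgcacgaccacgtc

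Genes of lysosomal release and esterification were close to level between the groups. Npc1, the membrane protein that moves sterol out of lysosomes, had 198, 184 and 219 CPM in knockout livers, against 193, 153 and 204 CPM in control livers, a log2 fold change of 0.13 with a standard error of 0.16. Npc2, its soluble partner (GRCm38 chromosome 12, 84754562 to 84773152, minus strand), had 186, 183 and 174 CPM in knockout livers, against 146, 164 and 165 CPM in control livers. All 3 knockout libraries were above all 3 controls in TMM-scaled CPM, with means of 181 ± 6.44 and 158 ± 10.4 CPM (SD, n = 3 each) and the smallest within-group spread of the 30 members. The log2 fold change was 0.19 (standard error 0.14, adjusted p 0.625 in edgeR); it was -0.03 by library totals, a scaling under which the median over all genes was -0.21, and 0.18 relative to that median. Macrophages also express Npc2. Their 10 markers summed to 1482 to 2152 CPM in knockout livers and 1153 to 1787 CPM in control livers, with 0 markers at 0 counts in every library. Of the 10, 8 had a log2 fold change above 0 and 2 below, with a median of 0.52. In every knockout library against every control library 3 were higher, beside 7.25% of all genes, and 0 lower, beside 9.14%. The part of macrophages in the Npc2 values was not tested.

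Soat1, the sterol acyltransferase of macrophages and many other cells, had 50.7, 55.2 and 41.8 CPM in knockout livers, against 34.8, 62.3 and 44.3 CPM in control livers. The controls spanned the knockouts, and the log2 fold change was 0.06 (standard error 0.21) and turned to -0.19 by library totals, 0.02 relative to the shift of all genes. Soat2, the acyltransferase that supplies cholesteryl ester to lipoproteins in liver and intestine, had 24.6, 25.1 and 31.8 CPM in knockout livers, against 27.6, 24.7 and 33.3 CPM in control livers, a log2 fold change of -0.07 with a standard error of 0.16. In each group replicate 3 was the highest for Soat2.

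Efflux genes split into a steady transporter and a variable pair. Abca1, which loads sterol and phospholipid onto apolipoprotein A-I, had 173, 194 and 153 CPM in knockout livers, against 198, 160 and 171 CPM in control livers, a log2 fold change of -0.03 with a standard error of 0.16. Abcg5, a subunit of the sterol transporter of the canalicular membrane, had 63.2, 39.5 and 57.5 CPM in knockout livers, against 77.8, 21.6 and 49.96 CPM in control livers. Abcg8, the other subunit, had 90.4, 57.0 and 86.8 CPM in knockout livers, against 93.9, 30.2 and 63.9 CPM in control livers. Both had the same order within each group: replicate 2 was lowest and replicate 1 highest, so knockout replicate 1, low for the synthesis genes, was the highest knockout library for the pair. Their log2 fold changes were 0.10 (standard error 0.43) and 0.32 (standard error 0.38), and without control replicate 2 they were -0.25 and -0.01. The exons of the 2 genes overlap on opposite strands in the annotation, and the part of shared reads in their likeness was not tested. Both are on chromosome 17, on opposite strands, and the promoter window of Abcg5, from 84682962 to 84683261, shares 209 bases with the window printed for Abcg8.
Abcg8, chr17:84682871-84683170, plus strand, the window of the shared promoter: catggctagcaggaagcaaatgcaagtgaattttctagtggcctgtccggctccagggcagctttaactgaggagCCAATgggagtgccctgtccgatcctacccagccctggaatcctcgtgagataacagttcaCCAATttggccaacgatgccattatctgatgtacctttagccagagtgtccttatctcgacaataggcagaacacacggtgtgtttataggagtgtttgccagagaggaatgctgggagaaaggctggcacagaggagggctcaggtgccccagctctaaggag

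Set side by side, synthesis varied more between libraries than the pooled 7 release, esterification and efflux genes did. The mean over the 19 synthesis genes of log2 CPM relative to the control mean was -0.41, 0.62 and 0.82 in knockout replicates 1 to 3, against 0.09, -0.60 and 0.52 in control replicates 1 to 3. Knockout replicates 2 and 3 were the highest libraries and control replicate 3 came close to them. For the 7 release, esterification and efflux genes it was 0.21, 0.05 and 0.18 in knockout livers, against 0.18, -0.29 and 0.10 in control livers. Within the knockouts the lowest synthesis library was thus the highest for this group, and control replicate 2 was low in both. The difference between both scores was -0.62, 0.58 and 0.64 in knockout livers, against -0.10, -0.32 and 0.41 in control livers, so the knockout mean exceeded the control mean by 0.20 with a pooled SD of 0.57. The medians of the log2 fold changes were 0.37 for synthesis and 0.10 for release, esterification and efflux, a difference of 0.26. The mean over the 3 efflux genes alone had a range of 1.26 among control livers, beside 1.12 for synthesis. Among knockout livers its range was 0.39, beside 1.22 for synthesis. No p is given for these scores, since the members were chosen with results known.

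**Figure D3:**
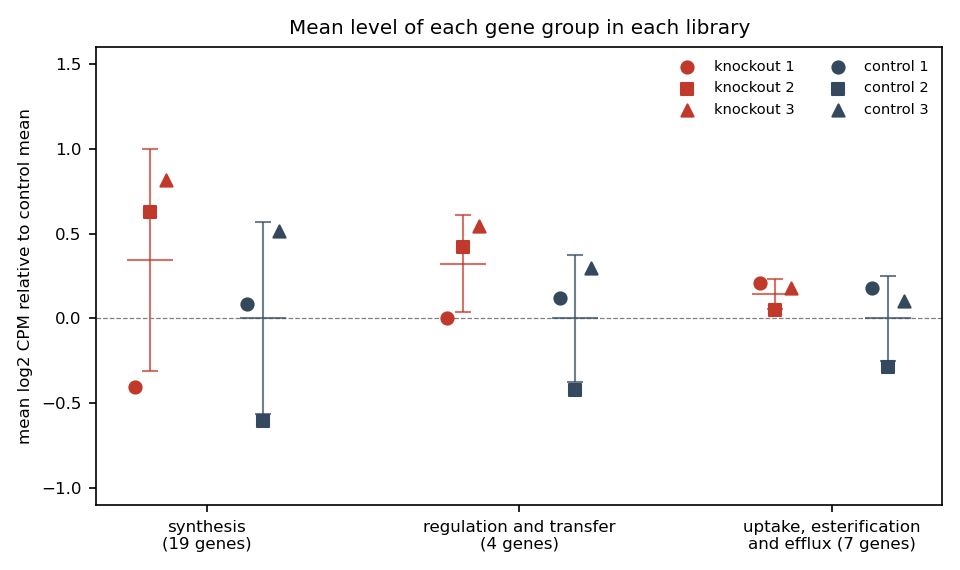
Mean log2 CPM relative to the control mean for synthesis, regulation and transfer, and release, esterification and efflux genes, one point per library (knockout left of control; marker shape gives the replicate), with the group mean and SD. The synthesis points run from -0.41 to 0.82 in knockout and from -0.60 to 0.52 in control livers, and the groups overlap.

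**Figure D4:**
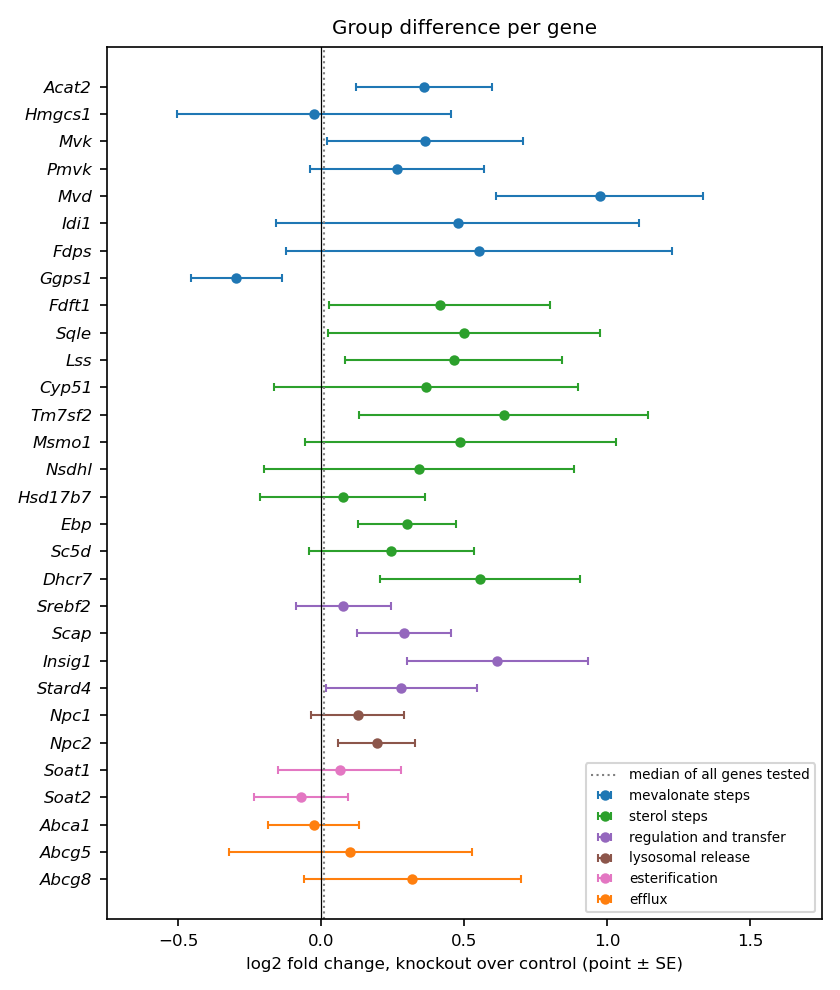
Log2 fold change of knockout over control for each gene with its standard error from edgeR, coloured by role; the dotted line is the median of all genes tested, 0.01. All 11 sterol enzymes lie above 0 with wide errors, and 0 of the 30 genes passed the adjusted test.

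Single libraries decided the size of the synthesis median. It was 0.73 without knockout replicate 1 and 0.77 without control replicate 3, against 0.17 without knockout replicate 3 and 0.12 without control replicate 2. The median of the release, esterification and efflux genes was 0.05 without knockout replicate 1, 0.19 without knockout replicate 2, 0.06 without knockout replicate 3 and -0.01 without control replicate 2. Without knockout replicate 1, 7 members had an unadjusted p under 0.05, all higher in knockout livers, beside 4.38% of all genes in that direction, and 0 passed after adjustment, with a smallest adjusted p of 0.282 in edgeR.

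**Figure D5:**
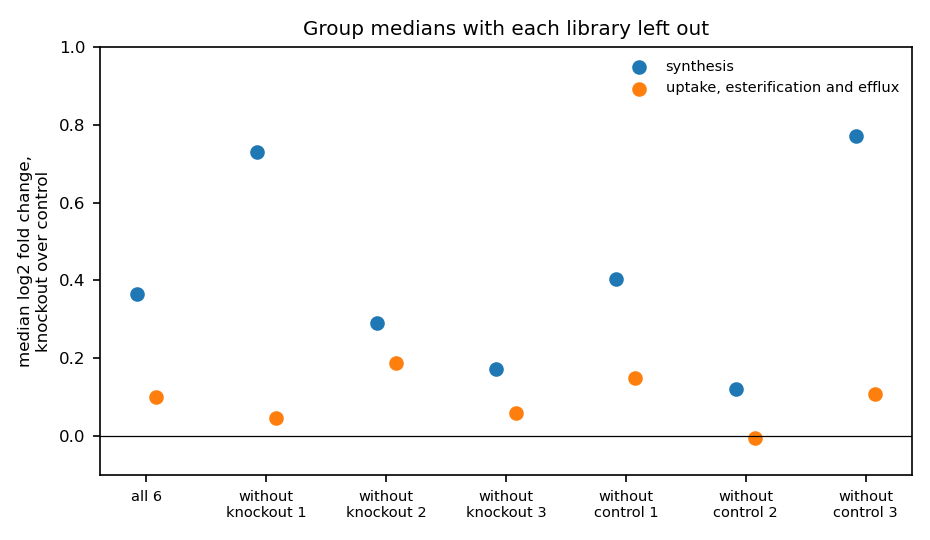
Median log2 fold change, knockout over control, of the synthesis genes and of the release, esterification and efflux genes in all 6 libraries and with each library left out. The synthesis median runs from 0.12 to 0.77 and the other from -0.01 to 0.19.

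Of the marker lists, that of cholangiocytes was highest, within each group, in the library that was low for synthesis. The summed level of the 8 cholangiocyte markers was 580, 253 and 324 CPM in knockout replicates 1 to 3, against 839, 1290 and 536 CPM in control replicates 1 to 3, so knockout replicate 1 and control replicate 2 were the highest of their groups, although control replicate 1, not low for synthesis, exceeded knockout replicate 1. All 8 were detected in the table, 8 of 8 had a log2 fold change below 0, and 0 were at 0 counts in every library. The 8 proliferation markers summed to 39.4, 55.6 and 37.3 CPM in knockout livers, against 100.3, 163 and 68.4 CPM in control livers, and knockout replicate 1 was not the highest knockout. The 8 hepatocyte markers summed to 130258, 123447 and 142688 CPM in knockout livers, against 108871, 68787 and 120592 CPM in control livers, so control replicate 2 was low whereas knockout replicate 1 was not. Alb made up most of that sum in every library. Of the 8, 7 had a log2 fold change above 0, and Tat, at -0.77, was lower in every knockout than in every control library. The 8 endothelial markers summed to 422 to 453 CPM in knockout livers and 331 to 409 CPM in control livers. Of the 14 clock genes, 7 were higher and 3 lower in every knockout than in every control library, beside 7.25% and 9.14% of all genes, whereas of the 19 synthesis genes 0 were higher and 1 lower in this way. The part of any of these in the cholesterol genes was not tested.

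Levels per length, in the deposited TPM, spanned a wide range among the members. Sc5d was highest at 265 ± 78.4 TPM in knockout and 260.4 ± 50.9 TPM in control livers, and Mvd was the lowest in controls at 12.1 ± 5.43 TPM in knockout and 7.10 ± 0.95 TPM in control livers (SD, n = 3 each). Hmgcs1, Fdps, Ebp, Msmo1 and Idi1 followed Sc5d in control livers, between 159 and 101 TPM, and neighbours among these 5 differed by less than the larger of their SDs. Srebf2 was at 21.3 ± 2.07 TPM in knockout and 23.3 ± 0.56 TPM in control livers, below every enzyme but Mvk, Ggps1, Lss and Mvd in controls. Abca1 stood at 28.4 ± 3.54 TPM in knockout and 34.3 ± 4.43 TPM in control livers.

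Among 24 other genes of sterol supply and handling, 0 passed edgeR's adjusted test and 1 passed in DESeq2, beside 0% and 0.923% of all genes. At an unadjusted p under 0.05 in edgeR 4 were higher, beside 3.75% of all genes, and 1 was lower, beside 7%, with a median log2 fold change of 0.20 over the 24. Nr1h3, which encodes the liver X receptor alpha, had 74.6, 79.6 and 86.7 CPM in knockout livers, against 61.3, 51.5 and 69.9 CPM in control livers, without overlap and with a log2 fold change of 0.40 (standard error 0.15, adjusted p 0.405). Aacs, which feeds ketone bodies into cytosolic lipid synthesis, had 15.6, 44.1 and 81.1 CPM in knockout livers, against 18.1, 11.95 and 20.9 CPM in control livers, a log2 fold change of 1.47 with a standard error of 0.56. Knockout replicate 1 again lay among the controls.

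Srebf1, the regulator of fatty acid synthesis, had 56.0, 111 and 101 CPM in knockout livers, against 57.0, 66.9 and 49.4 CPM in control livers, a log2 fold change of 0.63 with a standard error of 0.25. Vldlr, a lipoprotein receptor, had 3.46, 0.98 and 0.71 CPM in knockout livers, against 5.56, 5.57 and 2.39 CPM in control livers, and Gramd1b, which carries sterol from the plasma membrane to the endoplasmic reticulum, had a log2 fold change of -0.56 with a standard error of 0.25. Insig2, the other Insig gene, singled out after its values were seen, had 378, 202 and 150.3 CPM in knockout livers, against 534, 204 and 329 CPM in control livers. Its highest knockout library was replicate 1, where Insig1 was lowest among the knockouts. Only 5 of these 24 genes had knockout replicate 1 and control replicate 2 as their lowest libraries.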

How the data were processed

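Polyadenylated RNA from the livers of 6 mice, 3 per group by the titles in the labels, was sequenced in pairs of reads. The estimated counts per gene were deposited by the authors without normalization, with 6.93% of values not whole, and were rounded before testing; the deposited TPM values are the authors' scaling to gene length and a fixed total. Per the submitters' processing notes, RSEM 1.3.3, HISAT2 2.2.1, DESeq2 1.38.3 and fastp 0.23.2 were used on GRCm38, with no roles given. Estimated counts were not whole in every library for Acat2 and Fdft1, in 4 for Npc1 and in 2 for Tm7sf2.

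The groups were compared in edgeR 4.0.16 (R 4.3.3) by its quasi-likelihood test after filterByExpr, with TMM scaling, a robust fit, a prior count of 2 for log2 CPM and Benjamini-Hochberg adjustment over 13197 genes at 0.05. CPM values use TMM-scaled sizes, and standard errors are the fold change over the square root of its F statistic. Gene positions are from GENCODE M21. Alternatives were DESeq2 1.42.0, limma 3.58.1 (voom, and log2(TPM + 1) or log2(TPM + 0.1)), other scalings and filters, a replicate block and each library left out. The fit was tested on simulated data with 200 changed genes. There edgeR recovered 61% of genes changed 2-fold and 93% of those changed 4-fold, with 11 false among 165 called. Smaller changes were not simulated. The changed genes were drawn at random from genes with higher counts, and each gene was simulated apart from the others. The synthesis genes had a median within-group SD of 0.63, beside 0.25 over all genes tested, and mostly shared their lowest libraries. The shares recovered in the simulation therefore need not hold for the synthesis genes.

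The members and lists were chosen with earlier results of these data known. All 30 members may be named; values in every library are given for up to 4 members of each role with the smallest p and for all release, esterification and efflux genes, and up to 6 other pathway genes were to be named. Promoters were those of up to 4 members with the smallest p that hold a searched motif, and of Abcg5 and Abcg8. Some genes within these rules are not reported here. Replicates are described as biological. The p-values of edgeR weigh the difference between groups against the spread among these 3 animals a group, estimated with information shared over genes. Within a group, no pair of libraries agreed within sampling noise, with a chi-square per degree of freedom of at least 29.0. Figures used Python 3.11.15 and matplotlib 3.10.9.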

Additional observations from a re-analysis of the deposited data

How the results depend on the processing

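The count of all genes called was 0 in edgeR, 127 in DESeq2, 5 with the replicate block and 0 to 2 with each library left out in turn; it was 0 under the other alternatives run. The count of members called was 0 under all 16 alternatives. The labels give no pairing, and 3 libraries a group cannot settle whether equal replicate numbers mark paired animals. The deviations of same-numbered libraries correlated at 0.12, -0.01 and 0.13 for replicates 1 to 3. Knockout replicates 1 and 2 correlated best with another number, and knockout replicate 3 with its own. The replicate block left the synthesis median at 0.36, while genes with an unadjusted p under 0.05 in edgeR went from 1419 to 1792. With each library left out, the synthesis median ran from 0.12 to 0.77, that of release, esterification and efflux genes from -0.01 to 0.19 and their difference from 0.10 to 0.69.

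The median of all genes shifted by -0.20 in log2(TPM + 1), -0.23 in log2(TPM + 0.1) and -0.21 by library totals. There the release, esterification and efflux median was -0.11, -0.11 and -0.07, or 0.09, 0.12 and 0.14 relative to the shift, while that of synthesis was 0.12, 0.11 and 0.20, or 0.31, 0.34 and 0.41 relative to it. Of 480 member values under alternatives 38 changed sign, 16 of them with a library left out, and 0 passed the threshold; 16 of the 30 members kept their sign throughout. By library totals the value was -0.094 for Hsd17b7, -0.12 for Srebf2, -0.073 for Npc1, -0.028 for Npc2, -0.19 for Soat1 and -0.058 for Abcg5. In log2(TPM + 1) and log2(TPM + 0.1) it was -0.014 and -0.017 for Pmvk, -0.090 and -0.093 for Hsd17b7, -0.0061 and -0.0063 for Sc5d, -0.13 and -0.13 for Srebf2, -0.11 and -0.11 for Npc1, -0.049 and -0.049 for Npc2, and -0.19 and -0.20 for Soat1; Cyp51 was -0.00031 in the second. All these lay above 0 relative to the shift. Hmgcs1 was 0.017 in limma-voom; the cause was not tested.

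With each library left out in turn, the log2 fold change ran from -0.36 to 0.42 for Hmgcs1, -0.068 to 0.51 for Pmvk, -0.042 to 0.79 for Nsdhl, -0.20 to 0.28 for Hsd17b7, -0.043 to 0.19 for Srebf2, -0.10 to 0.32 for Soat1, -0.20 to 0.059 for Soat2, -0.11 to 0.076 for Abca1, -0.25 to 0.59 for Abcg5 and -0.0060 to 0.74 for Abcg8. The pair of libraries and all counts of library order, in TMM-scaled CPM, in TPM and by library totals, were chosen after seeing the data.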
